A study of Mus musculus with 6 samples.

Results

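The S100 genes encode small calcium-binding proteins, and 10 of them were examined among the 18182 genes of the dataset. The 10 genes were S100a1, S100a3, S100a4, S100a6, S100a8, S100a9, S100a10, S100a11, S100a13 and S100a16. They were selected by symbol, with earlier results of these data known. The libraries were made from a mouse lung cancer line, Lewis lung carcinoma (LLC), labelled with red fluorescent protein. Its cells were injected under the skin of wild-type C57BL/6 mice alone (LLC alone) or together with bone marrow-derived mesenchymal stem cells of C57BL/6 mice (LLC with BMSCs). When tumours reached the same size range, red fluorescent cells were sorted by flow cytometry and their mRNA was sequenced, in 3 libraries per group. The study's methods give female mice for its allografts. Host immune, stromal and endothelial cells are present in such tumours, the BMSCs were bought as a culture, and fluorescence was the property on which cells were sorted. The labels do not say that the libraries came from separate animals, so p-values measure only the spread between these libraries, which may be technical.

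An S100 protein holds a pair of calcium-binding EF-hand motifs and usually works as a dimer. Calcium binding opens a surface on the dimer that docks to other proteins, among them annexins at membranes and myosin in the cytoskeleton. Some members are also released from cells and bind surface receptors such as the receptor for advanced glycation end products. S100a4 is known for its association with metastasis and is expressed in many fibroblasts, and S100a8 and S100a9 form calprotectin, an abundant complex of neutrophils and monocytes.

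All 10 genes lie on mouse chromosome 3 in the GENCODE M21 annotation of GRCm38. The deposited files themselves carry no coordinates, and the submitters' processing notes name the older build mm8. From S100a1 to S100a9, 8 of the genes span 184.7 kb (chr3:90511034-90695721). S100a11 and S100a10 span 44.16 kb (chr3:93520488-93564643), 2825 kb farther on. Among the 10, S100a4 (chr3:90603771-90606045, plus strand) lies between S100a3 and S100a6 (chr3:90612882-90624181, plus strand). S100a8 (chr3:90668978-90670035) and S100a9 (chr3:90692632-90695721) are neighbours on opposite strands.

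The promoters of 4 genes are shown because the results below turn on them, S100a8 and S100a9 as the members that rose most, and S100a4 and S100a6 as nearby genes, with S100a5 between them, whose relative levels were compared. The sequences are RefSeq promoters of build GRCm38.p6, read 5′ to 3′ and ended before the first annotated exon. Capitals mark the C/EBP motif TTGCNNAA in S100a9 and the TATA motif TATAAA in S100a4, and the other pair holds no capitals because none of the 7 motifs searched was found in the stretch printed.
S100a8 (chr3:90668821-90668977, plus strand): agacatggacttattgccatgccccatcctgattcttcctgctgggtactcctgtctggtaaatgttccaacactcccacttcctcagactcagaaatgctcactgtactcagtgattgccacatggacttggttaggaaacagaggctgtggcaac
S100a9 (chr3:90695722-90695971, minus strand): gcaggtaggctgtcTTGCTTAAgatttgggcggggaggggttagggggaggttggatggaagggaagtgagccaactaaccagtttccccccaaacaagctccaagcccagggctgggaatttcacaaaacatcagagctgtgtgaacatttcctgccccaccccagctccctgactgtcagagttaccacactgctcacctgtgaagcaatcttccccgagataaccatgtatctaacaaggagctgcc
S100a4 (chr3:90603520-90603769, plus strand): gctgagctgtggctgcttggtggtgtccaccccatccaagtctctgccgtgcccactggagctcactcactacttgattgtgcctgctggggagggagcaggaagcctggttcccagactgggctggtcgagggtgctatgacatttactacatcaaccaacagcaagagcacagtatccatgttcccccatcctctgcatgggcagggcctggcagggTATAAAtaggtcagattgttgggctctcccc
S100a6 (chr3:90612644-90612881, plus strand): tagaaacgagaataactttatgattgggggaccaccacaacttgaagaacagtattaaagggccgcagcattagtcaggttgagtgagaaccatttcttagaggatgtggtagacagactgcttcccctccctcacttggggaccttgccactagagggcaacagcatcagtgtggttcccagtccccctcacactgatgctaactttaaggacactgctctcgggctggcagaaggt

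RefSeq gave 13 promoter windows for 9 of the 10 genes, each from 250 bases before to 50 bases after a transcript start, and S100a10 was not matched. The 7 motifs were searched on both strands. The C/EBP motif TTGCNNAA was found in 1 of the 13 windows, that of S100a9, where it began 236 bases before the start, and in 10.8% of all 32851 mouse windows. TATAAA was found in 4 windows, those of S100a4, S100a8, S100a9 and one of S100a3, against 13.6% of all windows. It began 31 bases before the start in S100a4 and 30 bases before the RefSeq start in S100a8, inside the exon that GENCODE begins earlier. In S100a3 it began 52 bases before the start, and in S100a9 at the start itself, after the stretch printed. The AP-1 motif TGANTCA was found in windows of S100a11 and S100a16 (7.81% of all windows), and the interferon-response motif GAAANNGAA in windows of S100a1, S100a3 and S100a16 (8.56%). The hypoxia-response core ACGTG was found in windows of S100a6 and S100a11 (19.6%). The STAT motif TTCNNNGAA (8.30% of all windows) and the NF-kB motif GGANTTNCC (3.95%) matched none of the 13. A match describes letters and not a bound site.

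Libraries held 33476347 to 46189113 estimated counts. Of 13353 genes that passed the filter on low counts, 62.9% were called (edgeR's quasi-likelihood test, Benjamini-Hochberg adjusted p under 0.05), 31.5% higher and 31.3% lower in LLC with BMSCs, and the normalized counts of the groups did not overlap in 71.3%. Calls were therefore common among all genes. Vim reached 887 FPKM (fragments per length of transcript and per total of the library) in LLC alone and Krt8 95.3. Krt18, Epcam, Cdh1, Nkx2-1 and Sftpc were under 1 FPKM in every library. Of these, Krt18 was at 0.083 ± 0.050 FPKM in LLC alone and 0.65 ± 0.032 in LLC with BMSCs (SD, n = 3). LLC alone replicate 3 stood apart by transcript length, since genes in the shortest quintile (up to 1585 bases) had a median deviation of 0.32 on the log2 scale from the mean of all libraries there and those in the longest quintile one of -0.37. All 10 S100 genes are in the shortest quintile, with lengths of 392 to 1117 bases. Of the 2671 genes tested in that quintile, 14.5% were called higher and 46.5% lower, against 45.6% and 14.4% in the longest quintile.

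The genes S100a4, S100a6, S100a10 and S100a11 carried nearly all of the family's message, 98.0% to 98.1% of its summed FPKM in LLC alone and 97.1% to 97.3% in LLC with BMSCs. S100a8 and S100a9 were clearly detected in LLC with BMSCs, with at most 2 counts in any library of LLC alone. Of the 10 genes, 2 rose (S100a8 and S100a9), 3 fell (S100a3, S100a4 and S100a10) and 5 did not pass the test, so that 50% were called, against 62.9% of all genes. After removal of the length trend of the libraries, 5 rose (S100a6, S100a8, S100a9, S100a11 and S100a13) and 1 fell (S100a3), against 34.9% of all genes higher and 34.8% lower. The groups did not overlap for 7 of 10, against 71.3% of all genes. The median log2 fold change of the 10 was -0.23, also with S100a8 and S100a9 set to their lower bounds, against 0.01 over all tested genes and -0.28 in the shortest quintile. All 10 passed the filter, S100a8 and S100a9 only through the group where they are high.

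**Figure D1:**
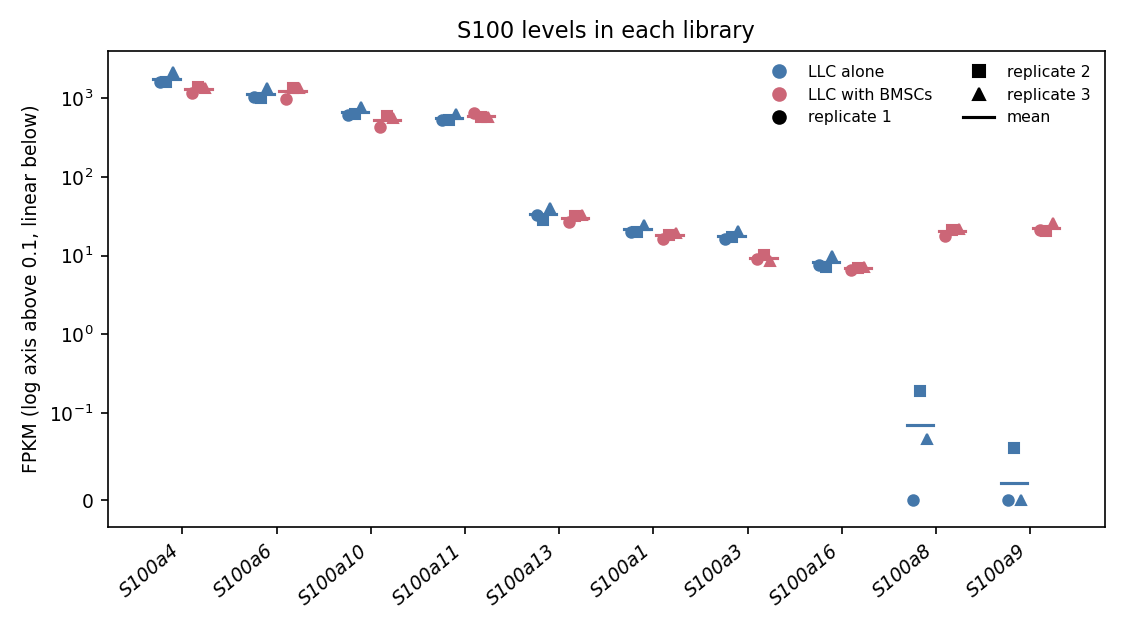
FPKM of the 10 S100 genes (horizontal axis, ordered by the mean in LLC alone) in each library, on an axis that is logarithmic above 0.1 and linear below, with symbols for replicates and a bar for the mean of 3. S100a4 had the highest mean in both groups, but its range overlapped that of S100a6 in LLC with BMSCs. S100a8 and S100a9 lay between 17.7 and 25.8 FPKM in LLC with BMSCs and at 0 to 0.19 in LLC alone.

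The order of levels per length in LLC alone was S100a4, S100a6, S100a10, S100a11, S100a13, S100a1, S100a3, S100a16, S100a8 and S100a9. The ranges of neighbours in that order overlapped for S100a10 with S100a11, S100a1 with S100a3, and S100a8 with S100a9. In LLC with BMSCs the order was S100a4, S100a6, S100a11, S100a10, S100a13, S100a9, S100a8, S100a1, S100a3 and S100a16. There the ranges of S100a4 and S100a6 overlapped, as did those of S100a11 with S100a10, S100a9 with S100a8 and S100a8 with S100a1. By FPKM, S100a4 ranked between 35 and 40 among all genes in LLC alone and between 46 and 55 in LLC with BMSCs, whereas S100a6 ranked between 73 and 80, then between 47 and 68.

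S100a8 and S100a9 are the calprotectin subunits, which bind zinc and manganese as well as calcium and act as danger signals outside the cell. S100a8 was listed at 0, 0.19 and 0.07 FPKM in LLC alone replicates 1, 2 and 3, and at 17.71, 21.33 and 21.69 FPKM in LLC with BMSCs. S100a9 was listed at 0, 0.06 and 0 FPKM, and at 20.90, 20.60 and 25.76 FPKM. Every co-injected library was far above every library of LLC alone for both genes.

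In raw estimated counts, S100a8 had 0, 2 and 1 in LLC alone and 254, 300 and 302 in LLC with BMSCs. S100a9 had 0, 1 and 0 against 434, 421 and 522. Both genes were thus at or under the floor of 3 counts in each library of LLC alone. Against that floor in each library, S100a8 was at least 87.1-fold higher and S100a9 at least 140.1-fold higher in LLC with BMSCs. The floor covers counting error only. For the fitted changes rather than these bounds, edgeR gave adjusted p = 1.37e-06 for S100a8 and adjusted p = 5.82e-07 for S100a9. Both rose in each of the 17 alternative fits that gave them a value. Both passed filters only through LLC with BMSCs, so these fits add no separate support.

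S100a9 has a pair of RefSeq transcripts in the files, and in LLC with BMSCs NM_001281852 took 73.6%, 85.4% and 84.3% of the gene's FPKM while NM_009114 took the rest. S100a8 has 1 transcript. The transcript shares of S100a9 in LLC alone rest on 1 read and are not compared.

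The rise of this pair is set beside markers of other cells that a tumour sort could hold. Summed levels of S100a8 and S100a9 were 0, 0.090 and 0.022 counts scaled to the library total (CPM) in LLC alone and 15.4, 16.2 and 18.6 CPM in LLC with BMSCs. Neutrophil markers other than the pair summed to 0.697 to 0.99 CPM in LLC alone and to 9.36 to 9.97 CPM in LLC with BMSCs. Of the 7 that passed the filter, 5 had at most 3 counts in each library of LLC alone and passed only through LLC with BMSCs, so a count of those called is not read as a result. The most abundant was Ngp, a neutrophil granule protein, at 0.010 ± 0.017 and 2.60 ± 0.17 FPKM (SD, n = 3), whereas Ly6g, a surface marker of mature mouse neutrophils, was at 0.03 to 0.11 FPKM in LLC alone and 0.03 to 0.08 in LLC with BMSCs. Of the 10 markers in the files, Mmp8, Mpo and Elane, all enzymes of neutrophil granules, were at 0 in every library of LLC alone, and Mpo and Elane reached 0.13 to 0.30 and 0.13 to 0.29 FPKM in LLC with BMSCs.

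Leukocyte markers as a whole moved the same way, with a sum of 1.18 to 1.43 CPM in LLC alone and 10.7 to 11.3 CPM in LLC with BMSCs. Of these, 5 of 5 were higher, against 31.5% of all genes, but 1 had at most 3 counts in each library of LLC alone. Ptprc (3, 8 and 8 counts in LLC alone) and Fcer1g (3, 4 and 5) also passed the filter only through LLC with BMSCs. The 5 of 5 is therefore not read as a result. Ptprc, which encodes CD45, had 0.030 ± 0.020 and 0.45 ± 0.040 FPKM (SD, n = 3). Macrophage and monocyte markers summed to 24.8 to 29.3 and 45.5 to 46.7 CPM. Of 9 tested, 7 were higher and 1 lower, against 31.5% of all genes higher and 31.3% lower. The 1 lower was Cd68, at 5.55 ± 0.51 and 3.03 ± 0.36 FPKM (SD, n = 3). Genes that passed the filter only through LLC with BMSCs included Adgre1, at 0 counts in each library of LLC alone. Others were Itgam (0, 0 and 5 counts in LLC alone), Mrc1 (6, 9 and 7) and Ly6c2 (3.15 to 4.17). The count of those higher is therefore not read as a result. The most abundant macrophage and monocyte gene, Cd14, had 9.49 ± 0.97 and 10.1 ± 0.87 FPKM without passing the test. Lymphocyte markers stayed between 0.225 and 0.395 CPM in all libraries, and none passed the filter. Endothelial markers summed to 0.72 to 0.943 and 0.927 to 1.14 CPM. Of the keratinocyte markers only Krt10 was in the files, with at most 1 count in a library. BMSC and fibroblast markers summed to 271 to 326 and 670 to 702 CPM, with 8 of 8 tested higher, against 31.5% of all genes. Among them, Col1a1 (2, 4 and 4 counts in LLC alone), Lum (4, 2 and 3) and Dcn (8 in each library) passed the filter only through LLC with BMSCs. The 8 of 8 is therefore not read as a result. Thy1 and Cxcl12 were at 0 in LLC alone. The part of such cells in the S100a8 and S100a9 result was not tested. In sorted bulk samples, fewer cells of a type and less RNA per cell cannot be told apart.

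**Figure D2:**
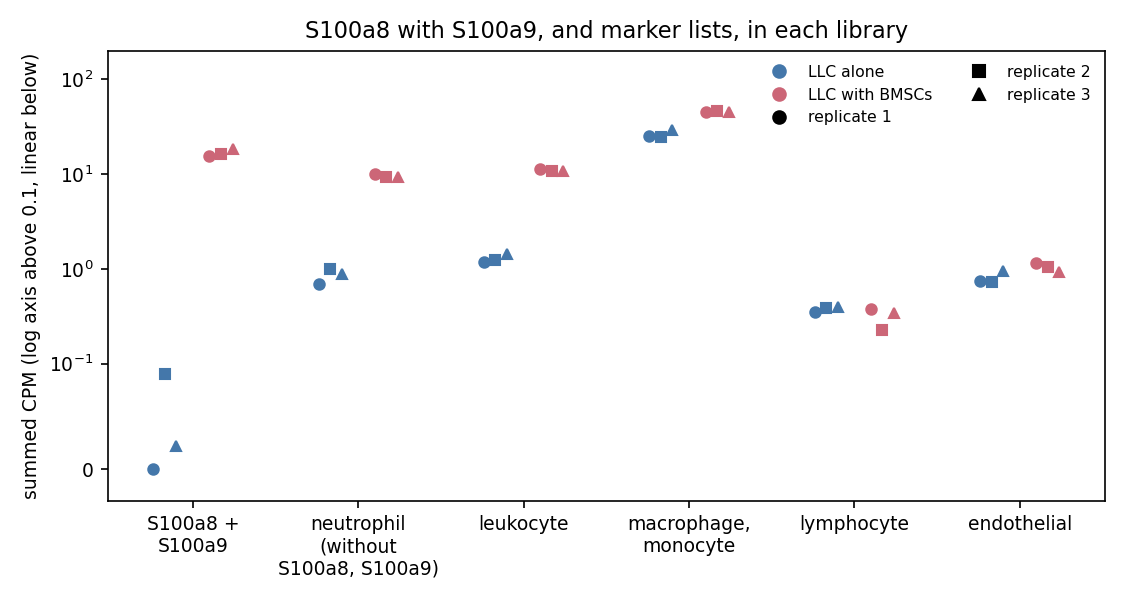
Summed CPM of S100a8 with S100a9 and of marker lists (horizontal axis) in each library, on an axis that is logarithmic above 0.1 and linear below. S100a8 with S100a9 reached 15.4 to 18.6 CPM in LLC with BMSCs beside 9.36 to 9.97 CPM of neutrophil markers, and lymphocyte markers stayed under 0.395 CPM in all 6 libraries.

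S100a4, also called metastasin, binds nonmuscle myosin heavy chain. It was measured at 1605.18, 1589.05 and 2125.60 FPKM in LLC alone and at 1165.03, 1371.29 and 1338.30 FPKM in LLC with BMSCs. Every library of LLC with BMSCs was below every library of LLC alone. Mean levels were 1773 ± 305 and 1292 ± 111 FPKM (SD, n = 3), and the gene fell by 0.48 on the log2 scale (SE 0.12, 95% interval -0.77 to -0.19, edgeR adjusted p = 0.0105). With the length trend of the libraries removed the log2 fold change was -0.07 and did not pass the test (edgeR adjusted p = 0.12). Without LLC alone replicate 3 the fall remained called, and leaving out any single library gave values from -0.56 to -0.32.

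S100a3, a cysteine-rich member best known from hair cuticle, was measured at 16.19, 17.32 and 20.27 FPKM in LLC alone and at 9.09, 10.24 and 8.45 FPKM in LLC with BMSCs. The groups were well separated. The gene fell by 0.75 on the log2 scale (SE 0.11, 95% interval -1.01 to -0.49, edgeR adjusted p = 0.000685), with means of 17.9 ± 2.11 and 9.26 ± 0.907 FPKM (SD, n = 3). Its fall was called in all 18 alternative fits, with values from -0.94 to -0.44, and was short of a stricter threshold that asks for a change of at least 1.

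The counts of S100a3 and S100a4, neighbours on the same strand, were not whole in 6 of 6 libraries, while their sum was whole within 0.01 in all 6, so reads were divided between them in the deposited estimates. S100a3 held 1.70% to 1.89% of that sum in LLC alone and 1.39% to 1.56% in LLC with BMSCs, without overlap. An error in that division would weigh far more on S100a3 than on S100a4, and its level is uncertain to that extent. The RefSeq transcript NM_011310 made 93.3% to 94.8% of S100a3 FPKM in LLC alone and 87.2% to 90.5% in LLC with BMSCs. A longer transcript assembled by the authors' pipeline made the rest, at 1.07 ± 0.16 and 1.02 ± 0.14 FPKM (SD, n = 3), so the difference in S100a3 lay in the RefSeq transcript.

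S100a6, also called calcyclin, binds the ubiquitin-ligase adaptor encoded by Cacybp. It was measured at 1043.94, 1005.90 and 1333.24 FPKM in LLC alone and at 986.93, 1353.51 and 1342.40 FPKM in LLC with BMSCs. The groups overlapped, since LLC with BMSCs replicate 1 was the lowest library of all and LLC alone replicate 3 was close to the upper co-injected pair. Means were 1128 ± 179 and 1228 ± 209 FPKM (SD, n = 3), with a log2 fold change of 0.10 (SE 0.15, 95% interval -0.25 to 0.44, edgeR adjusted p = 0.583). With the length trend removed it rose, at 0.45 (edgeR adjusted p = 0.000754). Without those 2 libraries it was at 0.37, in a fit chosen after the data were seen. That fit drops the libraries that made the groups overlap, so it adds no separate support for a rise.

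S100a10, also called p11, has lost calcium binding and forms a tetramer with annexin A2 that holds plasminogen at the cell surface. It was measured at 612.50, 631.64 and 768.45 FPKM in LLC alone and at 426.82, 589.16 and 557.55 FPKM in LLC with BMSCs. The groups did not overlap, but the highest co-injected library was close to the lowest library of LLC alone. The gene fell by 0.38 on the log2 scale (SE 0.13, 95% interval -0.69 to -0.07, edgeR adjusted p = 0.0389). The call was lost in 9 of 18 alternatives, among them without LLC alone replicate 2 (-0.42), LLC alone replicate 3 (-0.26), LLC with BMSCs replicate 1 (-0.25) or LLC with BMSCs replicate 3 (-0.42), and with the length trend removed (-0.01).

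S100a11, a partner of annexin A1, was measured at 528.92, 531.87 and 633.48 FPKM in LLC alone and at 653.28, 573.17 and 574.03 FPKM in LLC with BMSCs. The groups overlapped, and LLC with BMSCs replicate 1, low for the other expressed members, was here the highest of all. The log2 fold change was 0.07 (SE 0.10, 95% interval -0.16 to 0.29, edgeR adjusted p = 0.572). With the length trend removed it was 0.49 (edgeR adjusted p = 0.00234), and without LLC with BMSCs replicate 1 it was -0.01. Its counts were not whole in 4 of 6 libraries.

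S100a13, which takes part in the release of fibroblast growth factor 1, was measured at 32.45, 28.58 and 40.21 FPKM in LLC alone and at 26.69, 31.63 and 32.72 FPKM in LLC with BMSCs. These groups overlapped, with a log2 fold change of -0.19 (SE 0.13, 95% interval -0.49 to 0.12, edgeR adjusted p = 0.245). Removing the length trend turned S100a13 to 0.17, which was called higher (edgeR adjusted p = 0.0358).

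S100a1, best known as a regulator of calcium cycling in muscle, was measured at 20.00, 19.93 and 24.44 FPKM in LLC alone and at 16.44, 18.41 and 19.40 FPKM in LLC with BMSCs. S100a16, a widely expressed member, was measured at 7.60, 7.23 and 9.75 FPKM against 6.64, 6.93 and 7.08 FPKM. For both genes each co-injected library lay below each library of LLC alone, by narrow margins. The log2 fold change was -0.27 for S100a1 (SE 0.11, 95% interval -0.53 to -0.02, edgeR adjusted p = 0.0603). For S100a16 it was -0.28 (SE 0.12, 95% interval -0.57 to 0.01, edgeR adjusted p = 0.0857). Without LLC alone replicate 3 the values were -0.16 and -0.12, and without LLC alone replicate 2 S100a16 was called, at -0.36 (edgeR adjusted p = 0.0422). After removal of the length trend they turned to 0.11 and 0.001, neither of them called.

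The libraries of a group moved together across the expressed members. LLC alone replicate 3 was the highest of its group for all 8 members detected in both groups, by 0.18 to 0.28 on the log2 scale above the group mean, beside 0.18 for the median gene of the shortest quintile. LLC with BMSCs replicate 1 was the lowest of its group for 7 of the 8, reaching -0.29 for S100a6 and -0.27 for S100a10, beside -0.05 for the median gene of the shortest quintile. S100a11 was the exception, at 0.14. Among pairs of replicates, counts differed least between LLC alone 1 and 2 and between LLC with BMSCs 2 and 3, with a mean chi-square per gene of 4.75 and 3, and the other pairs had 19.1 to 60.3. All exceeded sampling noise, for which 1 is the reference.

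**Figure D3:**
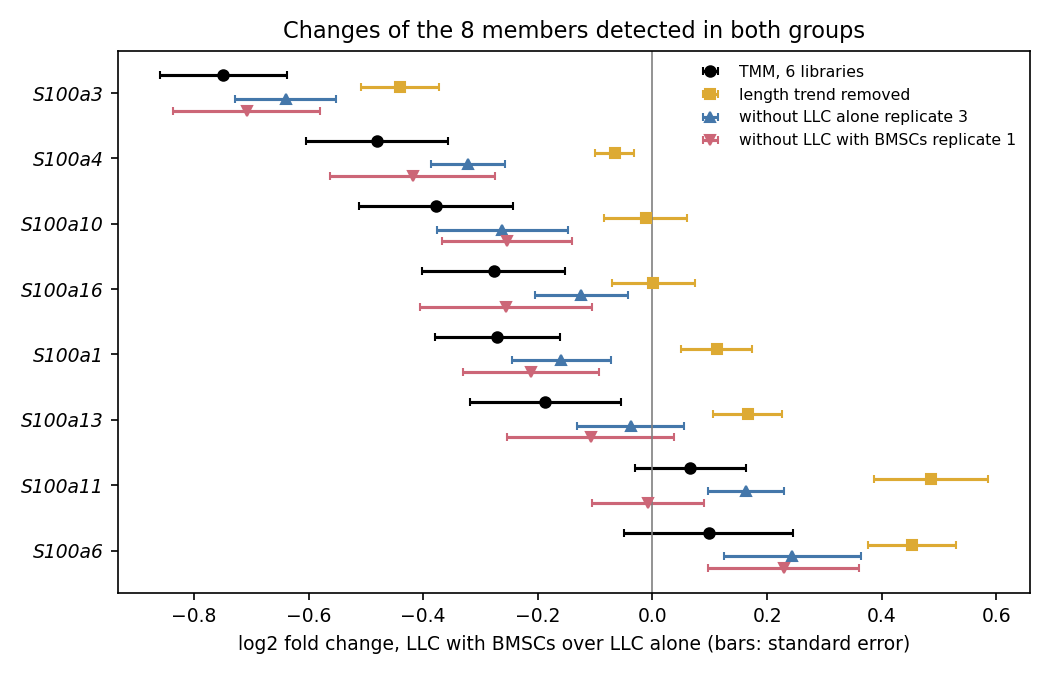
Log2 fold change of LLC with BMSCs over LLC alone (horizontal axis, bars are standard errors) for the 8 members detected in both groups, in all 6 libraries with TMM scaling, with the length trend removed, and without either of 2 libraries. S100a3 was the lowest in all 4 fits, and S100a4 and S100a10 moved to -0.07 and -0.01 with the length trend removed.

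Ratios between genes within a library were compared for 3 pairs, S100a6 with S100a4, S100a11 with S100a10 and S100a10 with its partner Anxa2. The pairs were chosen after the values were seen, and 3 libraries against 3 allow no exact permutation p below 0.1. The FPKM ratio of S100a6 to S100a4 was 0.637 ± 0.0121 in LLC alone and 0.946 ± 0.0858 in LLC with BMSCs (SD, n = 3; two-sided exact permutation p = 0.1, adjusted p = 0.15). It ran from 0.627 to 0.650 in LLC alone and from 0.847 to 1.003 in LLC with BMSCs, so that the groups did not overlap. S100a6 was therefore close to level with S100a4 in 2 of the co-injected libraries and well under it in every library of LLC alone.

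The ratio of S100a11 to S100a10 was 0.843 ± 0.0196 and 1.18 ± 0.307 (SD, n = 3; two-sided exact permutation p = 0.1, adjusted p = 0.15), also without overlap. Its spread in LLC with BMSCs came from replicate 1, at 1.53. The ratio of S100a10 to Anxa2, which encodes its partner, was 0.820 ± 0.0392 and 0.873 ± 0.135 (SD, n = 3; two-sided exact permutation p = 0.5, adjusted p = 0.5), with overlapping groups.

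**Figure D4:**
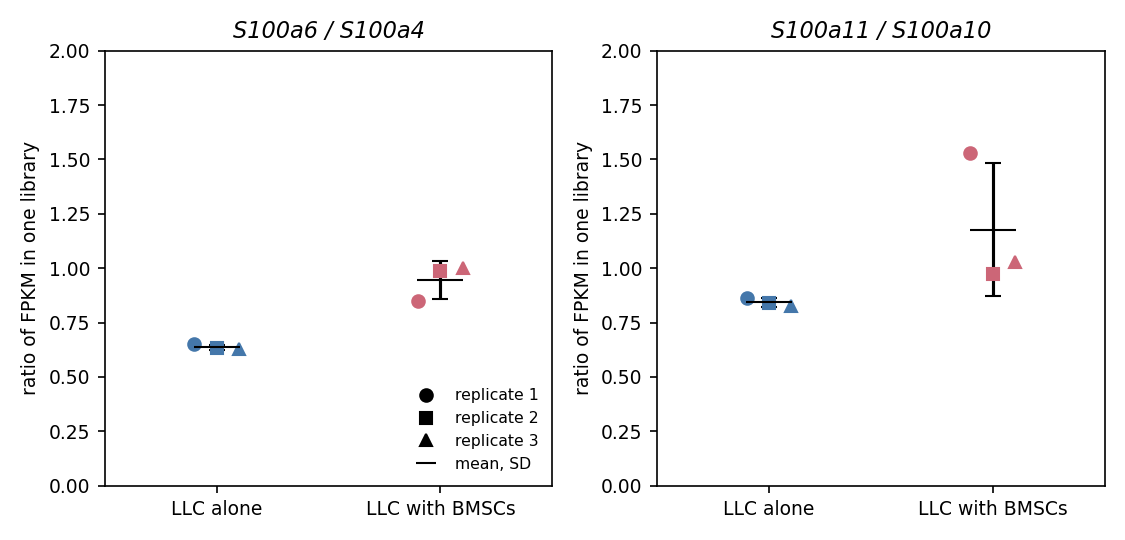
Ratio of FPKM values within each library for S100a6 over S100a4 and S100a11 over S100a10, by group, with replicates as symbols and the mean and SD as bars. The groups do not overlap in either panel, and LLC with BMSCs replicate 1 stands at 1.53 for S100a11 over S100a10.

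Summed over the 10 genes, FPKM was 4218 ± 639 in LLC alone and 3751 ± 366 in LLC with BMSCs (SD, n = 3), and the groups overlapped. The makeup of that sum differed more than its size. S100a4 made 41.5% to 42.9% of it in LLC alone and 34.1% to 35.0% in LLC with BMSCs, and S100a10 made 15.5% to 16.5% and 12.8% to 14.7%. S100a6 made 26.3% to 27.0% and 29.6% to 34.2%, and S100a11 made 12.8% to 13.9% and 14.3% to 19.6%. Shares of 1 sum are not independent of each other. Other family members in the files, S100a2, S100a5, S100a7a, S100a14 and S100b, had group means of 0.03 to 0.20 FPKM and did not pass the filter.

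Receptors that bind released S100 proteins moved in different directions. Ager, the receptor for advanced glycation end products, had 0.37, 0.38 and 0.29 FPKM in LLC alone and 1.16, 0.93 and 0.84 FPKM in LLC with BMSCs, and rose by 1.46 on the log2 scale (SE 0.18, edgeR adjusted p = 0.0003). It stayed a low gene, with counts that were not whole in 6 of 6 libraries. Tlr4, the receptor for calprotectin and bacterial lipopolysaccharide, had 7.61, 7.96 and 6.16 FPKM in LLC alone and 4.06, 4.22 and 4.26 FPKM in LLC with BMSCs, and fell by 0.81 (SE 0.09, edgeR adjusted p = 0.000189). The groups of both genes were separate, Ager upward and Tlr4 downward.

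Alcam, an adhesion molecule of the immunoglobulin family, rose by 1.34 on the log2 scale (edgeR adjusted p = 8e-06), from 2.81 ± 0.30 to 7.20 ± 0.11 FPKM (SD, n = 3). Bsg, which encodes basigin, a receptor for S100a9, was the highest of the receptors at 467 ± 57.0 and 444 ± 12.7 FPKM (SD, n = 3) and did not pass the test (log2 fold change -0.09, edgeR adjusted p = 0.404).

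Among annexins that dock S100 dimers, Anxa2 fell, while the fall of its partner S100a10 lost its call in 9 of 18 alternative fits. Anxa2 had 773.97, 785.88 and 888.81 FPKM in LLC alone and 594.55, 618.13 and 587.60 FPKM in LLC with BMSCs, a fall by 0.47 on the log2 scale (SE 0.07, edgeR adjusted p = 0.000772) with separate groups. Anxa1, partner of S100a11, had 263 ± 18.9 and 266 ± 9.15 FPKM (SD, n = 3), with a log2 fold change of -0.01 (edgeR adjusted p = 0.952), and like S100a11 was not called. Anxa11 rose by 0.29 (edgeR adjusted p = 0.00881) and Anxa6 rose by 1.53 (edgeR adjusted p = 0.000174) at only 0.20 and 0.58 FPKM.

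Of 38 listed partner genes, 31 were tested, 12 rose, 7 fell and 12 did not pass the test, so 61.3% were called beside 62.9% of all genes. Their median log2 fold change was -0.01. Outside the receptors, the 3 called partners with the greatest change among those averaging 100 or more normalized counts were Plau, Myh9 and Dysf. Plau, the urokinase that activates plasminogen at the surface where S100a10 and annexin A2 hold it, rose by 2.57 (SE 0.06, edgeR adjusted p = 1.02e-07), from 4.77 ± 0.14 to 28.8 ± 1.26 FPKM (SD, n = 3). Myh9, the nonmuscle myosin heavy chain bound by S100a4, rose by 0.82 (edgeR adjusted p = 0.00235), with LLC alone replicate 3 at 51.1 FPKM against 79.0 and 76.6 in the other 2. Dysf, which encodes the membrane-repair protein dysferlin, fell by 0.82 (edgeR adjusted p = 0.00373).

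**Figure D5:**
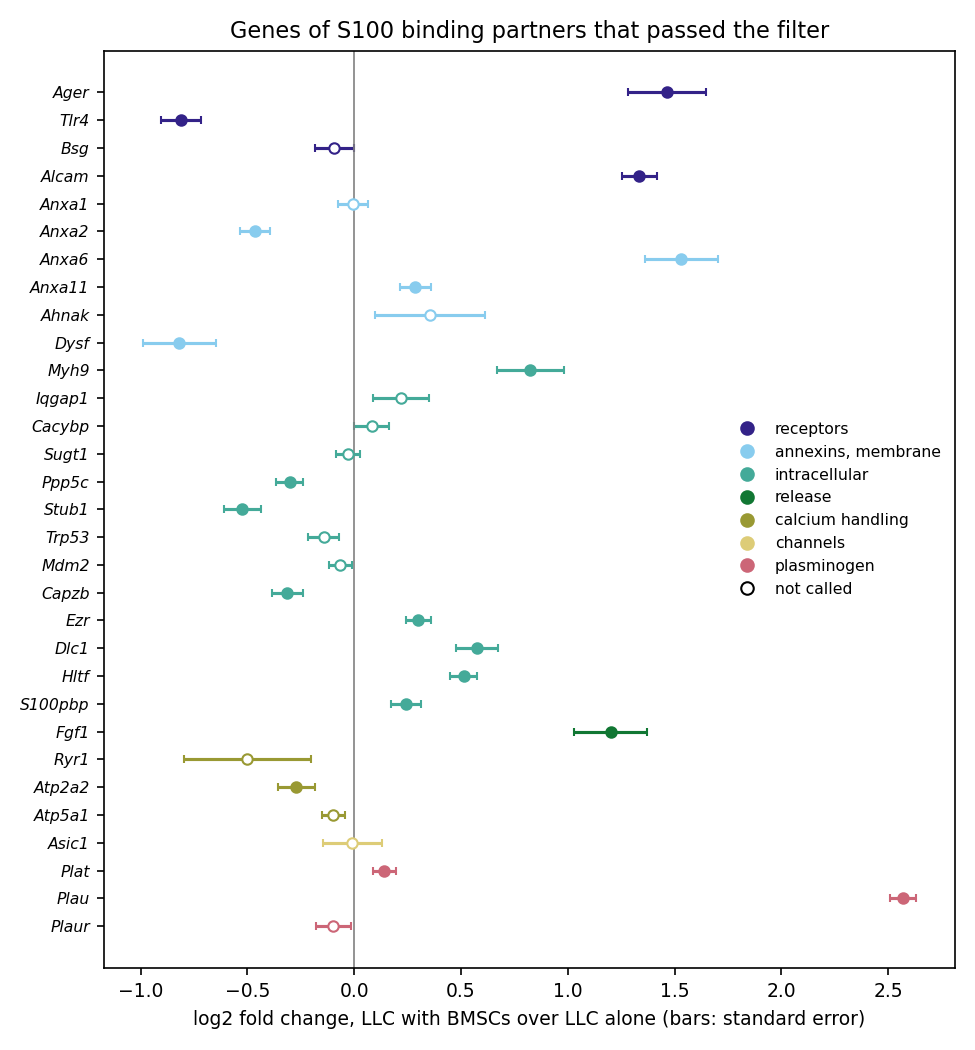
Log2 fold change of LLC with BMSCs over LLC alone (horizontal axis, bars are standard errors) for the 31 partner genes that were tested, coloured by the kind of partner, with open circles for genes not called. Plau stands apart at 2.57, and the 4 receptors lie on both sides of 0.

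The whole annexin family gave 3 higher and 3 lower of 9 tested (66.7% called), close to the 62.9% called among all genes. Anxa3 at -0.76, Anxa2 at -0.47 and Anxa4 at 0.39 on the log2 scale were the called genes of moderate counts with the greatest change. EF-hand genes outside the S100 family gave 9 higher and 8 lower of 27 tested (63%), also close to the 62.9% of all genes. Their median was 0.06 on the log2 scale, against -0.23 for the S100 genes. Lcp1, an actin bundler of leukocytes, rose by 5.34 (edgeR adjusted p = 2.51e-07) from 0.057 ± 0.012 to 2.32 ± 0.062 FPKM (SD, n = 3). Lcp1 had 12, 6 and 8 counts in LLC alone and passed the filter only through LLC with BMSCs, so its test adds no separate support. Rcn3 and Nucb2, calcium-binding proteins of the secretory pathway, rose by 1.43 and 0.62.

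Genes that lie within 250 kb of an S100 gene without belonging to the family numbered 50, and the files hold 11 of them. The filter left 7, and 57.1% of those were called, against 62.9% of all genes. Npr1, Chtop and Ilf2 fell, by 0.69, 0.65 and 0.50 on the log2 scale, and Ints3 rose by 0.34. The other 3 did not pass the test, and the median was -0.16.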

How the data were processed

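Sorted LLC cells gave 6 RNA-seq libraries, 3 per group. RNA was extracted with TRIzol and mRNA enriched with oligo-dT. The methods name the BGISEQ-500 and the labels name Illumina protocols. The authors deposited estimated counts, FPKM and a length per gene and transcript. The submitters' processing notes name HISAT, StringTie, Cufflinks, GATK and mm8 without their roles. Reads shared by genes are divided in estimated counts, and FPKM also depends on the estimated length.

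Estimated counts were rounded and all genes were fitted with edgeR 4.0.16 in R 4.3.3 (TMM, its default filter on low counts, quasi-likelihood test, Benjamini-Hochberg threshold 0.05). Each standard error was obtained from the log2 fold change and its F statistic. Normalized counts were CPM scaled to the mean effective library size. Alternatives used limma 3.58.1 on log2(FPKM + 1) and log2(FPKM + 0.1), DESeq2 1.42.0, other filters and thresholds, a replicate block, removal of the length trend and single libraries left out. The code was tested on simulated data. The members and lists were chosen with earlier results of these data known. All members were named, every receptor and annexin partner that was tested, and in each other list the 3 called genes of greatest change whose normalized counts averaged 100 or more. Genes named outside this rule were chosen after their values were seen.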

Additional observations from a re-analysis of the deposited data

How the results depend on the processing

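The fall of S100a3 and the rise of S100a8 and S100a9 kept their direction and call in every alternative fit that gave a value, although S100a3 missed the stricter threshold given below. S100a8 and S100a9 passed filters only through LLC with BMSCs. With at least 10 counts required in every library they were not tested, and 0 of 8 members were called higher (30.9% of all genes). With the length trend removed, 5 members were called higher and 1 lower, both without a replicate block (34.9% of all genes higher and 34.8% lower) and with it (35% and 34.7%), and the values that changed sign were S100a1 (0.112 and 0.111 with the block), S100a13 (0.166 and 0.168) and S100a16 (0.001 and 0.005). Without LLC alone replicate 3 and LLC with BMSCs replicate 1 together, an alternative chosen after seeing the data that leaves the closest replicate pairs, 4 members were called higher (37.7% of all genes) and S100a13 was at 0.034. S100a6 was at -0.04 with the close replicate pairs summed, and leaving out 1 library at a time gave -0.007 (without LLC with BMSCs replicate 1) to 0.163 for S100a11 and -0.29 to -0.038 for S100a13. With the threshold at 0.001 and a minimum change of 1 in either direction on the log2 scale, 0 members were lower, 5 partners higher and 0 lower, 1 annexin, 4 other EF-hand genes and 0 neighbours were called, and 910 of all genes were higher and 723 lower. The cause of these changes was not tested.

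Replicate numbers did not pair the libraries, since same-numbered libraries deviated from their group means with correlations of 0.052, -0.096 and 0.044, and 1 of the 3 numbers was matched best by itself. With the replicate block 2 members were higher and 4 lower, S100a1 joining at -0.267 (edgeR adjusted p = 0.0426), and 4161 of all genes were higher and 4058 lower. Depth limits S100a8 and S100a9 in LLC alone to bounds.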
